A study of Homo sapiens with 8 samples.

Results

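The genes described here are those named as mitochondrial ribosomal proteins, with a symbol of the form MRPL or MRPS followed by a number and, in a few cases, a letter A, B or C. By this rule 78 of the 12939 genes in the deposited tables were members, of which 49 were named for the large subunit (MRPL) and 29 for the small subunit (MRPS). Their RNA levels were compared among breast cancer stem cells (CSCs) that expressed a scramble shRNA (3 libraries), an shRNA to CDH2, the gene of N-cadherin (3 libraries), or an shRNA to Cx43, the gap junction protein connexin 43 (2 libraries). All 3 groups came from MDA-MB-231, a mesenchymal-like, triple-negative human breast cancer line that stably carried GFP under the regulatory region of Oct4a. All also carried an RFP vector for the shRNA, and the CSCs were the cells sorted for high GFP and for RFP, left overnight and then lysed for total RNA. The study selected 1 CDH2 shRNA clone by Western blot for its loss of CDH2 protein, and the scramble cells carried the same kind of vector. The transcripts of CDH2 and GJA1 (Cx43) were not analysed here, so the knockdown could not be checked from these values. VIM, CD44, AXL and the other markers set for MDA-MB-231 were present in every library, and ESR1, PGR and CDH1 were not among the genes tested. Of the other markers set as absent or low, KRT18 (8.14 to 8.78 on the log2 scale), ERBB2 (5.16 to 5.52) and EPCAM (2.21 to 2.75) were present in every library, and so was COL1A1 (2.498 to 4.334) of the stroma and blood markers. The values were log2 of CPM (read counts scaled to the size of the library) plus 1, and the number of reads behind them is unknown.

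Mitochondria hold their own ribosomes, which translate only the few mRNAs made from mitochondrial DNA, all of them for subunits of the respiratory chain and ATP synthase. The ribosomal RNAs of these particles are made inside the organelle, but every protein of both subunits is encoded in the nucleus, made in the cytosol and imported. The large subunit joins amino acids and the small subunit reads the codons. Part of the proteins have bacterial counterparts and the rest are found only in mitochondria.

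The genes are scattered over the nuclear genome, and what many of them share is sequence close to the start site. RefSeq promoters (GRCh38.p14, 250 bases before to 50 bases after the start) were at hand for 69 of the 78 members. The ETS motif CCGGAAG, bound by GABP among others, was found on either strand in 29 of them (42%), against 20.8% of the 9273 promoters of genes in the tables. The YY1 motif AAGATGGCG was found in 13 (18.8%, against 4.26%), and the NRF1 motif in 8 (11.6%, against 12.5%). The last letters of the ETS motif are the first of the YY1 motif, so that the matches can overlap. At least one of the 3 motifs was present in 43 members (62.3%, against 33.3%). The 120 bases upstream of the start are given for the pair of members called lower with CDH2 shRNA (MRPL41 and MRPS33) and, among the rest, for those with the most negative (MRPL53) and the most positive (MRPL3) difference, 5′ to 3′ on the strand of the gene. Capitals mark any of the 3 motifs. MRPL41 has none in its window, and those of MRPS33 lie outside the piece shown. The windows lie at chr9:137551759-137551878 (plus strand), chr7:141014953-141015072 (minus), chr2:74472681-74472800 (minus) and chr3:131502972-131503091 (minus). They are upstream of the RefSeq start. By the GENCODE positions used for the genes below, the MRPS33 window lies inside the gene and the MRPL3 window overlaps its first bases.
MRPL41: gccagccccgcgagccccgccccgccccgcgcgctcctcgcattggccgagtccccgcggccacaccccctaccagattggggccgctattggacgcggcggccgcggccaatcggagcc
MRPS33: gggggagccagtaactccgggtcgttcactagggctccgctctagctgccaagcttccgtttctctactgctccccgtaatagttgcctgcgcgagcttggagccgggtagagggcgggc
MRPL53: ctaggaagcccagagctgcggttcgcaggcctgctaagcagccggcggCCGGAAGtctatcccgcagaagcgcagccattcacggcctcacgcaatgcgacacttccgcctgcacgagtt
MRPL3: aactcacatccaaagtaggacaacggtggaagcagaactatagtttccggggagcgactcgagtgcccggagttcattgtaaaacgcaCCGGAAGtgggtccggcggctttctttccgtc
A match to these letters is a description of the sequence and not a measured binding site.

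The authors had already removed genes with low counts, so a gene of this family that was not expressed would be missing here. In scramble CSCs the 78 members had mean levels from 3.91 to 6.95 on the log2(CPM + 1) scale. Their CPM added up to 0.434% to 0.521% of the summed CPM of the listed genes in the scramble libraries, and to 0.401% to 0.487% in the knockdown libraries. Compared per length of the canonical transcript, the mean level in scramble ranged from 3.27 to 119 CPM per kb with a median of 30.6. The median was 34.5 CPM per kb for large subunit genes and 27.2 for small subunit genes. MRPL53, which lies near the base of the stalk of the large subunit, was highest at 119 ± 17 CPM per kb (SD, n = 3), with libraries between 103 and 137. MRPS34, a small subunit protein found only in mitochondria, followed at 97.3 ± 13.1, and MRPL18, the counterpart of a bacterial protein that binds 5S rRNA, at 90.7 ± 9.95 CPM per kb. MRPL53 was above MRPL18 in every library, while the range of MRPS34 (84.6 to 111) overlapped those of both. The lowest levels per length were those of MRPL42 at 3.27 ± 0.144, MRPS33 at 3.78 ± 0.202 and MRPS14 at 7.07 ± 0.618 CPM per kb. MRPL42 and MRPS33 have long annotated canonical transcripts of 15557 and 4210 bases, and a level per length depends on the transcript used.

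The members moved together from library to library. The mean log2 level of all 78 genes was 5.25, 5.40 and 5.11 in scramble replicates 1, 2 and 3. It was 5.06, 5.00 and 5.25 in the CDH2 shRNA libraries and 5.33 and 5.25 in the Cx43 shRNA libraries. The CDH2 group was therefore lower on average (5.10 ± 0.13, SD, n = 3, against 5.25 ± 0.15, n = 3, in scramble), but the 2 groups overlapped, and CDH2 shRNA replicate 3 was above scramble replicate 3. Libraries with the same shRNA differed by as much as the groups did. Scramble replicate 2 was above scramble replicate 3 for 75 of 78 members, with a median difference of 0.31, against 50.2% of all genes and a median of 0.002. CDH2 shRNA replicate 3 was above CDH2 shRNA replicate 2 for 74 of 78 members, with a median of 0.26, against 49.3% of all genes. This pattern was not particular to the members. Cytosolic ribosomal proteins had means of 8.05, 8.21 and 7.90 in scramble and 7.77, 7.64 and 7.94 with CDH2 shRNA. Nuclear-encoded subunits of oxidative phosphorylation had means of 5.94, 6.06 and 5.82 in scramble and 5.61, 5.52 and 5.75 with CDH2 shRNA. The authors had removed the effect of the sequencing replicate, and within each replicate number the deviations of the libraries from their group means summed to at most 1e-04. The values of 1 replicate number are thus not independent of each other, and in replicate 3, which has no Cx43 library, the CDH2 and scramble deviations mirror each other.

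**Figure D1:**
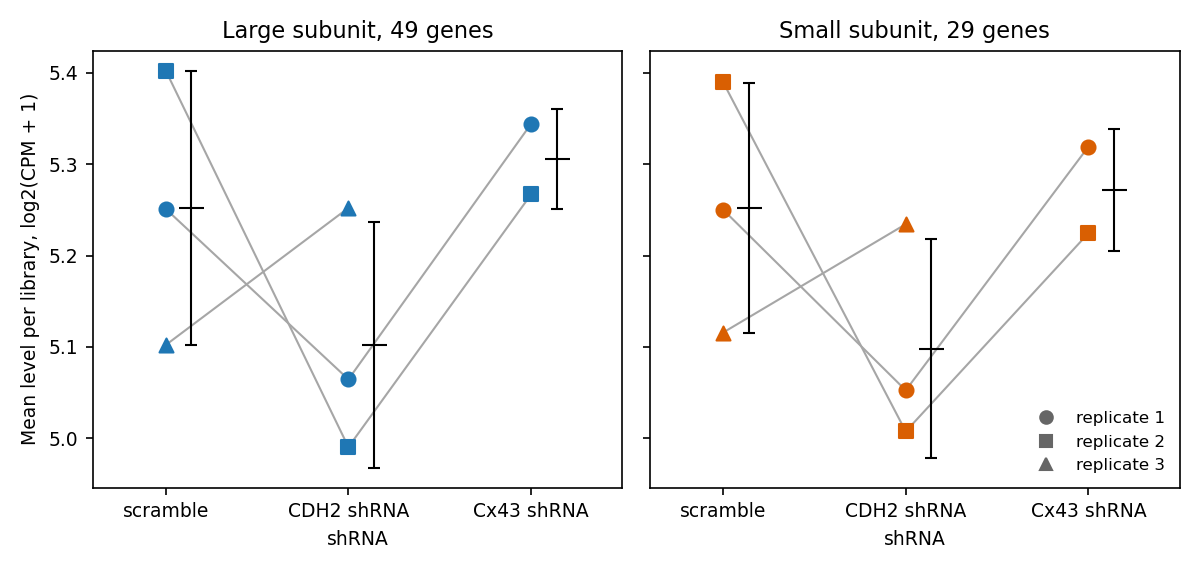
Mean level of the 49 large subunit genes and of the 29 small subunit genes in each library, in log2(CPM + 1), by shRNA. Grey lines join libraries with the same replicate number, and the bars give the group mean and SD over libraries. Both subunits show the same pattern, with CDH2 shRNA below scramble in replicates 1 and 2 and above it in replicate 3.

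The first comparison asked which members differed between CDH2 knockdown and scramble CSCs. With CDH2 shRNA 61 of the 78 members had a lower mean and 17 a higher one, with a median difference of -0.19 on the log2 scale, against 0.007 over all genes. Of these, 2 passed the test as lower, MRPL41 and MRPS33, and 0 as higher (limma with the replicate number as a block, Benjamini-Hochberg adjusted p under 0.05 over 12939 genes). The same test called 6.98% of all genes lower and 7.29% higher, so the members were not called more often than genes at large. At an unadjusted p under 0.05 there were 8 members lower (10.3%, against 18% of all genes) and 0 higher (against 19.5%). None of the differences reached the fold limit that the study used for its gene lists.

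MRPL41, a large subunit protein with no bacterial counterpart (chr9:137551879-137552555, plus strand, 2 exons), had log2 levels of 5.71, 5.87 and 5.56 in scramble and 5.11, 5.07 and 5.32 with CDH2 shRNA. Every CDH2 library was below every scramble library, and the 3 differences between libraries of the same number were -0.60, -0.80 and -0.23. The mean difference was -0.55 ± 0.12 (SE; 95% interval -0.85 to -0.24; 0.685 times the scramble value of CPM plus 1), with an adjusted p of 0.0433. MRPS33, a small subunit protein found only in mitochondria (chr7:141002610-141015228, minus strand, 3 exons), had levels of 4.08, 4.15 and 4.01 in scramble and 3.71, 3.60 and 3.77 with CDH2 shRNA. Its groups did not overlap either, and its mean difference was -0.39 ± 0.09 (SE; 95% interval -0.61 to -0.17; adjusted p = 0.0442). Both calls stand at the edge of the threshold. Both were lost when replicate 1 or 2 of CDH2 shRNA or of scramble was left out. Adjusted p was then 0.0566 to 0.211 for MRPL41 and 0.112 to 0.288 for MRPS33. Over all genes 0 were called without CDH2 shRNA replicate 1 or 2, and 4 lower and 6 higher without scramble replicate 1. Without scramble replicate 2 there were 822 lower and 746 higher. With the Cx43 libraries out of the model, 0 of the 12939 genes were called. Apart from scramble replicate 2, these losses were shared by nearly all genes and were not particular to the 2 members. Without replicate 3 of CDH2 shRNA or of scramble, 41 members were called lower (52.6%, against 20.1% of all genes) and 0 higher (against 20.9%). With no replicate block, a model that does not allow for the authors' correction, 14 were called lower (against 20.8%) and 2 higher (against 22.5%).

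The other members did not pass the test. MRPL53 had log2 levels of 5.90, 6.10 and 5.70 in scramble and 5.37, 5.26 and 5.62 with CDH2 shRNA, a difference of -0.49 ± 0.15 (SE; adjusted p = 0.0773), or -0.15 (adjusted p = 0.201) once transcript length and GC content, described further on, were taken out. It shares its strand and part of its span with CCDC142, so reads could be split between the 2 genes. The largest positive difference was that of MRPL3, a protein near the peptidyl transferase centre. Its levels were 6.07, 6.15 and 6.004 in scramble and 6.24, 6.26 and 6.35 with CDH2 shRNA, a difference of 0.21 ± 0.09 (SE; adjusted p = 0.141). A pseudogene, MRPL3P1, is also listed in the tables, and reads could be shared with it. MRPL19, another large subunit protein with a bacterial counterpart, was 6.31, 6.32 and 6.31 in scramble and 6.46, 6.52 and 6.50 with CDH2 shRNA. The narrow spread in scramble is what the replicate correction left. The difference of MRPL19 was 0.18 ± 0.07 (SE; adjusted p = 0.139) and turned to -0.09 with length and GC content taken out. MRPL39, found only in mitochondria, had a difference of 0.16 ± 0.11 (SE; adjusted p = 0.331; 0.25 with length and GC content taken out) with overlapping groups. Thus the members did not all share 1 direction, although no positive difference passed the test.

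**Figure D2:**
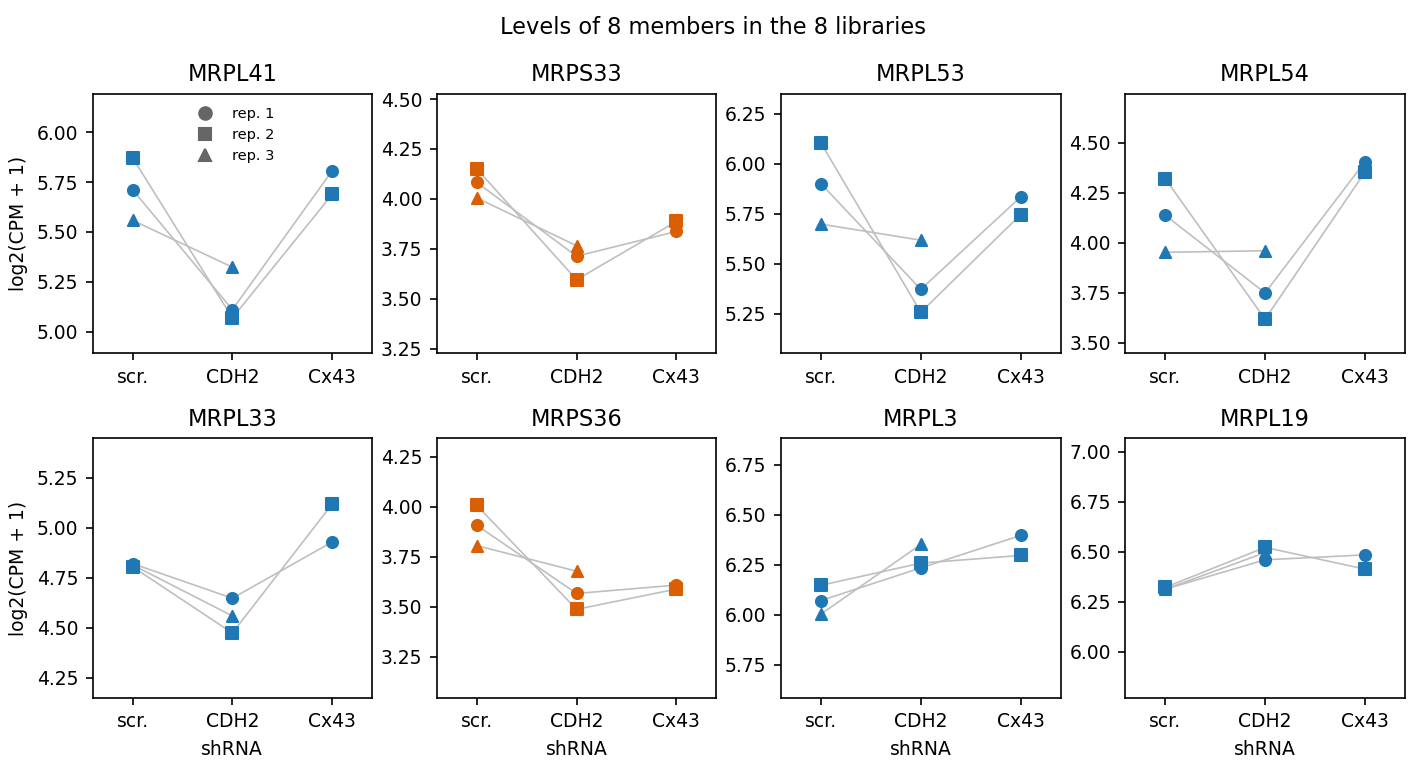
Log2(CPM + 1) of 8 members in the 8 libraries, by shRNA (scr. is scramble), with large subunit genes in blue and small subunit genes in orange. Every panel spans the same height and grey lines join libraries with the same replicate number. MRPL41 and MRPS33 lie lower in all 3 CDH2 libraries than in scramble, and MRPL3 and MRPL19 lie higher in both knockdowns.

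The 14 members with all CDH2 libraries below all scramble libraries made up 17.9% of the members, against 24.8% of all genes. The 6 with all CDH2 libraries above were MRPL3, MRPL19, MRPL30, MRPL35, MRPS22 and MRPS30, against 27.1% of all genes (MRPL30, MRPL35 and MRPS22 are named after their values were seen). Both shares of members were below the background. Between libraries of the same number, where an additive effect of the sequencing replicate cancels, 65 members were lower with CDH2 shRNA in replicate 1 (median -0.21), 69 in replicate 2 (median -0.45) and 16 in replicate 3 (median 0.15). In the same pairs 6428, 6453 and 6177 of all 12939 genes were lower. Lower in all 3 replicates were 14 members (17.9%, against 26.1% of all genes), and higher in all 3 were 7 (8.97%, against 28.5%).

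Members have short transcripts, and the differences followed transcript length in members and in all genes alike. The median canonical transcript was 1242 bases in members and 3257 bases in all 11888 genes with a length. The difference between CDH2 shRNA and scramble correlated with length across the 78 members with a Spearman rho of 0.49, and across all 11888 genes with a rho of 0.50. With GC content rho was -0.37 in members and -0.36 in all genes. Genes are not independent replicates, and all points share the same 6 libraries. The 39 members with the shorter transcripts had a median difference of -0.24 and the 39 with the longer ones -0.10. The same property went with differences between libraries within the scramble and CDH2 groups, but hardly within the Cx43 group. Over all genes the difference of scramble replicate 2 minus scramble replicate 3 had a rho of -0.51 with length, and that of CDH2 shRNA replicate 3 minus replicate 2 a rho of -0.55. In members these were -0.28 and -0.32. The replicate correction ties them to each other, so they are not independent. For Cx43 shRNA replicate 1 minus replicate 2 rho was -0.04 over all genes and -0.11 in members. Yet 67 of 78 members were higher in that replicate 1, against 57.1% of all genes. When a smooth dependence on length and GC content was taken out of each library, the median difference of the members with CDH2 shRNA was -0.03, with 45 of 78 members lower. MRPS33 then had a difference of -0.52 (adjusted p = 0.0382) and MRPL41 one of -0.09 (adjusted p = 0.322). Values corrected in this way depend on the canonical transcript used, which is long for MRPS33 and for MRPL19 (7825 bases). Whether these cells express those transcripts was not tested. The part of fragment length or RNA integrity in these differences was not tested.

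**Figure D3:**
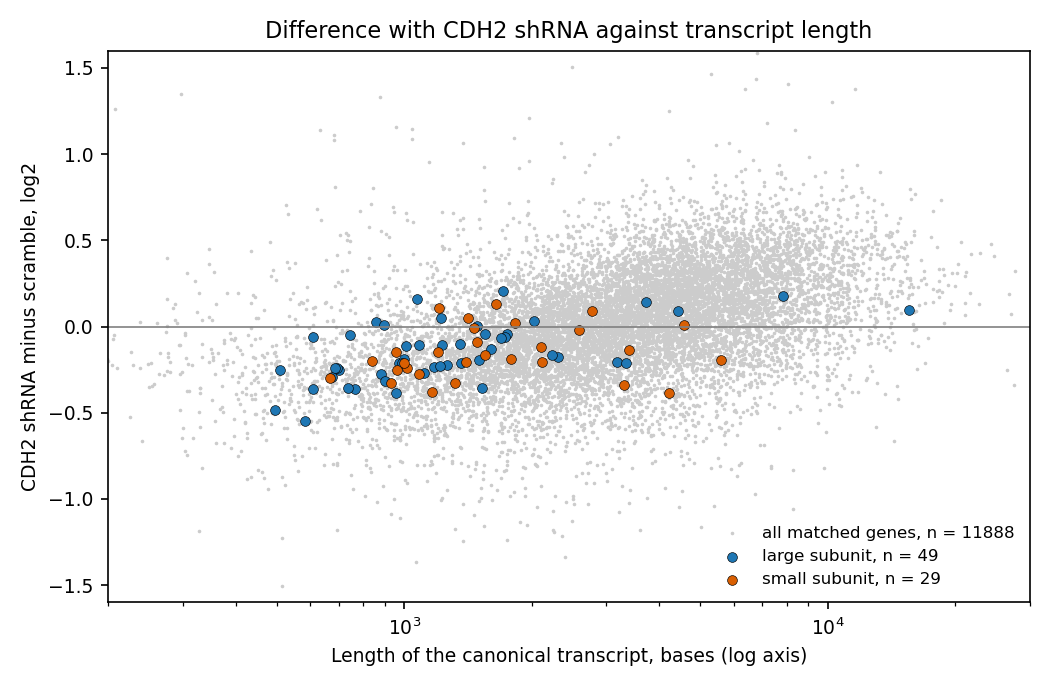
Difference between CDH2 shRNA and scramble in log2(CPM + 1) against the length of the canonical transcript (log axis), for all 11888 genes with a length in grey (41 fall outside the axes) and for the members in colour by subunit. Members lie mostly among the short transcripts, where most grey points are also below 0.

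The second question was whether the subunits differed. With CDH2 shRNA the median difference from scramble was -0.19 for the 49 large subunit genes (38 lower, 1 called) and -0.19 for the 29 small subunit genes (23 lower, 1 called). With Cx43 shRNA the medians were 0.05 and 0.05. In each library the mean of the large subunit minus that of the small subunit lay between -0.017 and 0.042. This balance was -0.0001 ± 0.013 (SD, n = 3) in scramble, 0.004 ± 0.019 (n = 3) with CDH2 shRNA and 0.034 ± 0.012 (n = 2) with Cx43 shRNA. Both Cx43 libraries, at 0.025 and 0.042, were above the 3 scramble libraries, of which the highest was 0.013. This balance was not tested. MRPS30 and MRPS18A sit in the large subunit despite their symbols, and MRPS36 is a component of the 2-oxoglutarate dehydrogenase complex. With these 3 placed by structure the CDH2 medians were -0.19 for 51 large and -0.18 for 26 small subunit genes. The 46 members with bacterial counterparts had a median of -0.18 (39 lower, 0 called) and the 32 found only in mitochondria one of -0.19 (22 lower, 2 called). Of all genes 49% were lower with CDH2 shRNA and 6.98% were called lower.

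**Figure D4:**
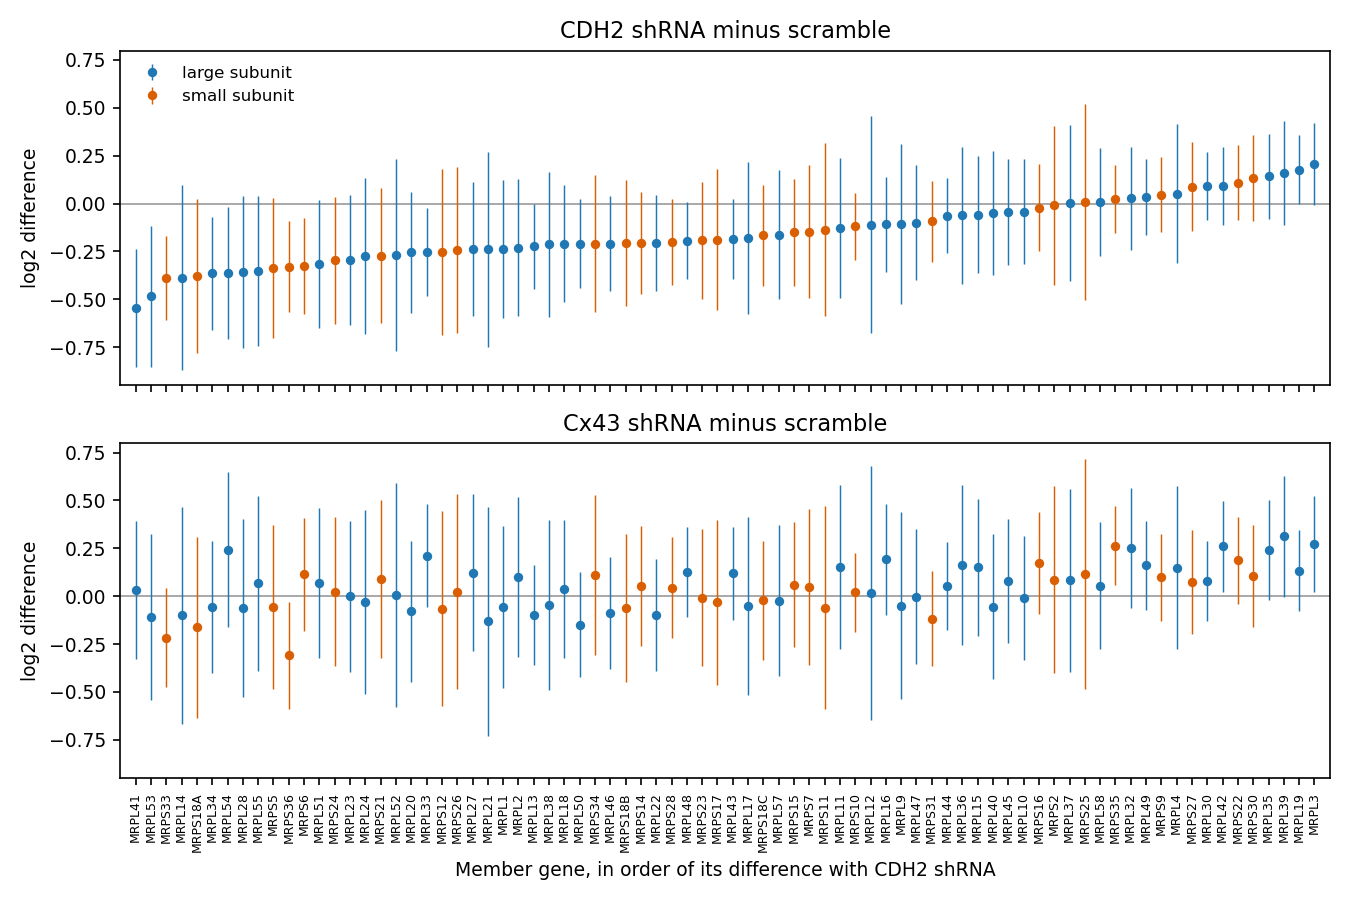
Difference from scramble in log2(CPM + 1) for each of the 78 members with CDH2 shRNA (top) and Cx43 shRNA (bottom), both in the order of the CDH2 difference. Points are the limma estimates and bars their 95% intervals, with large subunit genes in blue and small subunit genes in orange. Most points lie below 0 in the top panel and on both sides of 0 in the bottom one, and the 2 subunits are mixed along the order.

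The functional groups within the subunits were described by their medians, and differences between them were not tested. The 6 members at the exit of the peptide tunnel (MRPL17, MRPL22, MRPL23, MRPL24, MRPL45 and MRPL47) had CDH2 differences between -0.29 (MRPL23) and -0.04 (MRPL45), with a median of -0.19 and 0 called. MRPL45 is the protein that faces the inner membrane. The 6 members of the stalk regions were MRPL1, MRPL10, MRPL11, MRPL12, MRPL53 and MRPL54, which bind translation factors and exiting tRNA. They had differences between -0.49 (MRPL53) and -0.04 (MRPL10), a median of -0.18 and 0 called. MRPL12, the stalk protein proper, had the widest spread of all members in scramble, with levels of 5.92, 6.25 and 5.59, and its difference of -0.11 ± 0.23 (SE; adjusted p = 0.751) was smaller than its error. The 5 small subunit proteins at functional sites were MRPS12 of the decoding centre, MRPS5, MRPS2, MRPS7 and MRPS28. Their differences ran from -0.34 (MRPS5) to -0.01 (MRPS2), with a median of -0.20 and 0 called. These 3 medians were -0.05, -0.01 and 0.002 with length and GC content taken out. The paralogs MRPS18A, MRPS18B and MRPS18C had differences of -0.38, -0.21 and -0.17, with adjusted p of 0.149, 0.301 and 0.303. MRPS30 had a difference of 0.13 (adjusted p = 0.328) and MRPS36 one of -0.33 (adjusted p = 0.0695).

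In Cx43 knockdown CSCs the members stayed near their scramble level. Of the 78 members 31 had a lower mean and 47 a higher one, and the median difference was 0.05 (-0.002 after quantile normalization), against 0.04 over all genes. None was called by limma, lower or higher, against 0.788% of all genes lower and 0.417% higher, and 1 member was lower (1.28%, against 9.41% of all genes) and 3 were higher (3.85%, against 12.2%) at an unadjusted p under 0.05. Leaving the replicate block out of the model gave 1 call lower (MRPS36; against 10.3% of all genes) and 5 higher (6.41%, against 14%). The libraries of the 2 groups did not overlap in 4 members that were lower, MRPL50, MRPS31, MRPS33 and MRPS36 (5.13%, against 21.4% of all genes, with MRPL50 named after its values were seen). They did not overlap in 17 members that were higher (21.8%, against 31.4%). In replicate 1 the Cx43 library was lower in 21 members and in replicate 2 in 58. Of all 12939 genes 5291 and 6075 were lower in these pairs.

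The largest negative difference was that of MRPS36, at 3.91, 4.01 and 3.81 in scramble and 3.61 and 3.59 with Cx43 shRNA. Both knockdown libraries were below the scramble libraries, and the difference was -0.31 ± 0.11 (SE; adjusted p = 0.198). The CDH2 libraries, at 3.57, 3.49 and 3.68, were at the same height. A pseudogene, MRPS36P1, is listed in the tables, so its reads may be divided. MRPS33 was 3.84 and 3.89 with Cx43 shRNA, a difference of -0.22 ± 0.10 (SE; adjusted p = 0.296), and MRPS18A had one of -0.16 ± 0.19 (SE; adjusted p = 0.662). The largest positive differences were those of MRPL39, MRPL3 and MRPS35. MRPL39 was 4.41, 4.54 and 4.29 in scramble and 4.78 and 4.67 with Cx43 shRNA, a difference of 0.31 ± 0.13 (SE; adjusted p = 0.237). MRPL3 was 6.40 and 6.30, a difference of 0.27 ± 0.10 (SE; adjusted p = 0.203). MRPS35, a small subunit protein found only in mitochondria, was 5.38, 5.36 and 5.39 in scramble and 5.63 and 5.65 with Cx43 shRNA. The narrow spread within these groups is what the replicate correction left. The difference of MRPS35 was 0.26 ± 0.08 (SE; adjusted p = 0.157).

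The 2 knockdowns were then compared directly. CDH2 shRNA gave the lower mean in 72 of 78 members, with a median difference of -0.17, against -0.03 over all genes. This direction was not particular to the members. It was seen in 76 of 77 cytosolic ribosomal proteins (median -0.39). Nuclear-encoded subunits of oxidative phosphorylation had it in 76 of 77 (median -0.32). Lower with CDH2 shRNA were 77 members in replicate 1 (median -0.26) and 73 in replicate 2 (median -0.25), so both pairs of libraries went the same way. In these pairs 7386 and 6753 of all 12939 genes were lower. CDH2 shRNA replicate 3 has no Cx43 partner. Its member mean of 5.25 was close to the 5.25 of Cx43 shRNA replicate 2. No member passed the test, and neither did any of the 12939 genes (0% lower and 0% higher by limma). At an unadjusted p under 0.05 there were 8 members lower (10.3%, against 11.4% of all genes) and 0 higher (against 8.65%). A model with no replicate term called 8 members lower (10.3%, against 12.3%) and 0 higher (against 9.2%). Without replicate 3 of CDH2 shRNA or of scramble 17 were called lower (21.8%, against 9.01%) and 0 higher (against 7.46%). In 34 members the CDH2 libraries all lay below the Cx43 libraries (43.6%, against 29.1% of all genes), and in 0 they all lay above (against 21.8%). They all lay below in 73 of 77 cytosolic ribosomal proteins and 69 of 77 oxidative phosphorylation subunits. Length went with the difference between the knockdowns too, with a rho of 0.53 across members and 0.48 across all genes. With length and GC content taken out of each library the members' median was -0.07 and 55 of 78 members were lower. The median was then -0.24 for cytosolic ribosomal proteins and -0.20 for oxidative phosphorylation (75 genes with a length).

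MRPL54, a stalk protein found only in mitochondria, differed most between the knockdowns. Its levels were 3.75, 3.62 and 3.96 with CDH2 shRNA and 4.40 and 4.35 with Cx43 shRNA. Those in scramble, at 4.14, 4.32 and 3.95, overlapped with CDH2 shRNA and lay below both Cx43 libraries. The difference of CDH2 minus Cx43 shRNA was -0.60 ± 0.16 (SE; 95% interval -1.01 to -0.20; adjusted p = 0.160). MRPL41, at 5.81 and 5.69 with Cx43 shRNA, had a difference of -0.58 ± 0.15 (SE; adjusted p = 0.151). MRPL33, the counterpart of a small bacterial large-subunit protein, had one of -0.46 ± 0.11 (SE; adjusted p = 0.142). These 3 differences became -0.34, -0.24 and -0.27 after length and GC content were taken out (adjusted p = 0.122, 0.169 and 0.261). The largest of the 6 positive differences were those of MRPL19 (0.04 ± 0.09), MRPS30 (0.03 ± 0.11) and MRPS31 (0.02 ± 0.10), given with their SE and with adjusted p from 0.801 to 0.909. These intervals reach to 0.26, 0.29 and 0.27 on the upper side, so differences of that size could not be told from 0. Its pseudogene MRPS31P5 is listed beside MRPS31.

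Mitochondrial ribosomal proteins that do not carry an MRP symbol had differences on both sides of 0. CHCHD1, AURKAIP1, GADD45GIP1 and DAP3 were lower with CDH2 shRNA, from -0.39 (CHCHD1) to -0.08 (DAP3). PTCD3 was higher, at 0.31 (adjusted p = 0.101), above every member. The median over the 5 genes was -0.26 with 0 called, and -0.06 with length and GC content taken out. The 77 proteins of the cytosolic ribosome had a median of -0.27 with CDH2 shRNA, with 77 lower and 2 called lower, and 0.12 with Cx43 shRNA, with 0 called. The 77 nuclear-encoded subunits of oxidative phosphorylation had a median of -0.34 (73 lower, 16 called lower) with CDH2 shRNA and 0.03 (0 called) with Cx43 shRNA. The test called 6.98% of all genes lower with CDH2 shRNA, and 0.788% lower and 0.417% higher with Cx43 shRNA. The median transcripts of cytosolic ribosomal proteins and oxidative phosphorylation subunits were 785 and 804 bases, shorter than those of the members. After length and GC content were taken out, the CDH2 medians were -0.08 for cytosolic ribosomal proteins, -0.19 for oxidative phosphorylation (75 genes with a length) and -0.03 for the members. These lists were set side by side, and the differences between them were not tested. The 13 mRNAs of mitochondrial DNA, which the particle translates, had a median difference of 1.06 with CDH2 shRNA and 1.10 with Cx43 shRNA, and 0 of them were called in either comparison.

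The other genes of mitochondrial gene expression had medians near or above 0 with CDH2 shRNA, and their difference from the members was not tested. Their transcripts were longer, with medians from 2313 to 3721 bases. With length and GC content taken out the medians were 0.04 for translation factors, 0.04 for assembly factors, 0.14 for transcription and RNA handling and -0.02 for regulators, beside -0.03 for the members. Of 13 translation factors 1 was called lower with CDH2 shRNA and 3 were called higher, with a median of 0.06. The shares of all genes were 6.98% called lower and 7.29% called higher. MTIF3, an initiation factor, fell by 0.45 (adjusted p = 0.0374). GUF1, which moves ribosomes backward, rose by 0.42 (adjusted p = 0.0272), the elongation factor GFM1 by 0.41 (adjusted p = 0.0363) and the recycling factor MRRF by 0.36 (adjusted p = 0.0353). Of 26 ribosome assembly factors 14 were lower and 12 higher, with a median of -0.03 and 0 called. The most negative difference was that of YBEY at -0.50 (adjusted p = 0.0758), followed by MPV17L2 at -0.36 (adjusted p = 0.127), and the most positive that of METTL15 at 0.31 (adjusted p = 0.0846). The 16 genes of mitochondrial transcription and RNA handling had a median of 0.16, and 0 were called lower (against 6.98% of all genes). Called higher were 3 (against 7.29%). These were LRPPRC, which stabilises mitochondrial mRNAs, with a rise of 0.56 (adjusted p = 0.0228), the DNA-packaging transcription factor TFAM with 0.36 (adjusted p = 0.0453) and the RNA-degrading enzyme PNPT1 with 0.34 (adjusted p = 0.0498).

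Of 11 regulators of mitochondrial biogenesis and stress 2 were called lower and 1 higher with CDH2 shRNA, with a median of 0.16. The shares of all genes were 6.98% called lower and 7.29% called higher. DDIT3 and ATF4, transcription factors of the integrated stress response, fell by 0.59 (adjusted p = 0.0198) and 0.48 (adjusted p = 0.0215). DDIT3 was 4.65, 4.67 and 4.64 in scramble, 4.06, 4.04 and 4.08 with CDH2 shRNA and 4.04 and 4.03 with Cx43 shRNA. The narrow spread within these groups is what the authors' replicate correction left, and it does not measure the variation between replicates. The SE of the difference from scramble was 0.07 with CDH2 shRNA and 0.08 with Cx43 shRNA. The coactivator PPARGC1B rose by 0.68 (adjusted p = 0.0199). With CDH2 shRNA NRF1, GABPA and YY1, whose motifs were searched above, had differences of 0.23, 0.16 and 0.01 with adjusted p from 0.115 to 0.923. In Cx43 knockdown CSCs DDIT3, which fell by 0.62 (adjusted p = 0.0384), was the 1 gene called among all these lists. The share of all genes called lower there was 0.788%. MYC had a difference of 0.60 there (adjusted p = 0.0539). All 10 CDH2 calls in these lists were lost without CDH2 shRNA replicate 1 or 2, where 0 of the 12939 genes were called. They were also lost with the Cx43 libraries out of the model, where again 0 genes were called. Without scramble replicate 1 they were lost too, with only 4 of all genes lower and 6 higher. Without scramble replicate 2, which left 822 genes lower and 746 higher, 4 of the 10 were kept. After length and GC content were taken out 6 were kept, and GFM1, MRRF, PNPT1 and TFAM were lost.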

How the data were processed

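RNA-Seq libraries (Ribo-Zero Gold depletion, NEB Ultra II, single-end NextSeq reads) were made from 8 samples of sorted CSCs. According to the methods, the authors aligned reads to hg38 with STAR (version 2.6.1 in the submitters' processing notes), quantified genes by expectation maximization in Partek Flow, removed a low-quality sample and low genes, and deposited log2(CPM + 1) values after removing the effect of the sequencing replicate. Whether counting used strand is not given in the sources used here, so overlapping genes are uncertain. Depth cannot be recovered, and no interval of counting error is given. Summed CPM was 684411 to 727083 per library, and 1 line without a gene name per file was left out.

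All 12939 genes were fitted with limma 3.58.1 (R 4.3.3; lmFit and eBayes, two-sided) over all 8 libraries, with group and replicate number as terms, since the authors' correction used the replicate numbers (residual degrees of freedom 3). That correction, and the label numbers, are the source of the pairing. The largest sum of deviations from group means within a number was 1e-04. A call is a Benjamini-Hochberg adjusted p under 0.05. The labels do not say whether replicates were separate cultures, so p-values measure the spread between these libraries only. Fold changes are on the log2(CPM + 1) scale and understate changes of low genes. Transcript lengths, GC content and positions are those of the GENCODE v44 canonical transcripts (hg38), matched by symbol for all 78 members and 11888 genes (91.9%). The scripts were tested on simulated data.

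Named members were those called, the 3 largest rises and falls in each comparison, the 3 highest and 3 lowest per kb, those whose symbol and place differ, the MRPS18 paralogs and the structural lists. From the other lists, called genes or those with the largest differences were named, plus NRF1, GABPA and YY1, chosen after their values were seen. The members and lists were chosen with earlier results of these data known. Alternatives were no replicate block, quantile normalization, median centring, eBayes with a trend, a pseudocount of 0.1, a filter that kept 75% of genes by mean level, fits of the compared groups only, the study's fold limit (1.5 for Cx43), subunits by structure, leaving out each library, and, added after seeing the data, length and GC content regressed out.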

Additional observations from a re-analysis of the deposited data

Results flagged for a closer look

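MRPL33 had differences from scramble of opposite sign in the knockdowns, -0.25 with CDH2 shRNA (adjusted p = 0.110) and 0.21 with Cx43 shRNA (adjusted p = 0.324), of which neither passed the test. It had log2(CPM + 1) levels of 4.82, 4.80 and 4.81 in scramble, 4.65, 4.47 and 4.56 with CDH2 shRNA and 4.93 and 5.12 with Cx43 shRNA. All 3 CDH2 libraries were below and both Cx43 libraries above the scramble library of the same number. The difference of CDH2 minus Cx43 shRNA was -0.46 ± 0.11 (SE; adjusted p = 0.142 by limma). Without the replicate block the adjusted p was 0.00812, which is too small because that model does not allow for the authors' correction. It called 1594 of all genes lower and 1190 higher in this comparison, against 0 and 0 with the block. With length and GC content taken out the direct difference was -0.27 (adjusted p = 0.261), and the CDH2 difference from scramble was -0.06 (adjusted p = 0.693). The annotated span of MRPL33 overlaps BABAM2 on the same strand, so the reads may be shared. The part of that overlap in the result was not tested.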

How the results depend on the processing

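Quantile normalization, median centring, the filter on low means, a pseudocount of 0.1 and eBayes with a trend kept the 2 CDH2 calls and gave no call elsewhere. Without the replicate block, CDH2 shRNA against scramble had 14 members lower and 2 higher, Cx43 shRNA against scramble 1 lower and 5 higher, and CDH2 against Cx43 shRNA 8 lower. Over all genes the block-free model called 2696 lower and 2911 higher with CDH2 shRNA, against 903 and 943 with the block. It counts 5 residual degrees of freedom where the block leaves 3, although the authors' correction had used the others. Its p-values are therefore too small. With only the groups compared in the model, which leaves fewer libraries, the numbers lower were 0, 1 and 2 in the same order. Over all 12939 genes they were 0, 1241 and 263. The study's fold limit left 0 with CDH2 shRNA. With length and GC content taken out, an alternative chosen after seeing the data, 1 member was lower (MRPS33) and 1 higher (MRPL4) with CDH2 shRNA. Of the 11888 genes with a length, 804 were lower and 797 higher. The members' median was -0.0296. When each library was left out in turn, CDH2 shRNA had 0 to 41 members lower and CDH2 against Cx43 shRNA 0 to 17. The highest numbers came without replicate 3 of CDH2 shRNA or scramble, which give the same fit and call 2600 and 1166 of all genes lower. Without scramble replicate 2 the direct comparison had 2 members lower, against 426 of all genes. Over all fits with a library left out, the members' median for CDH2 against scramble ran from -0.3231 to -0.0497. That for Cx43 against scramble ran from -0.0417 to 0.1875, and that for CDH2 against Cx43 shRNA from -0.2587 to -0.0764.

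The large minus small subunit difference with CDH2 shRNA was 0.0425 with length and GC content taken out, and -0.0287 to 0.0249 with a library left out. With Cx43 shRNA it was -0.0085 to 0.0388. In the direct comparison it was -0.0151 with only the groups compared, -0.0077 with length and GC content taken out, and -0.0281 to 0.0164 with a library left out. Single members changed sign, none of them a called one, and the cause was not tested. With length and GC content taken out, the CDH2 differences became 0.0800 for MRPL10, 0.2328 for MRPL12, -0.0875 for MRPL19, 0.1101 for MRPL23, 0.0151 for MRPL45, 0.0004 for MRPL54, 0.0290 for MRPS12, 0.2092 for MRPS2 and 0.0018 for MRPS7, and the direct difference of MRPL19 became -0.1044. That of MRPS31 was -0.0068 with only the groups compared. With a library left out, the CDH2 differences ranged from -0.1695 to 0.0670 for MRPL10, from -0.3270 to 0.0323 for MRPL11, from -0.4435 to 0.1535 for MRPL12, from -0.1661 to 0.0595 for MRPL45, from -0.2493 to 0.0191 for MRPL47, from -0.2396 to 0.1768 for MRPS2 and from -0.3324 to 0.0028 for MRPS7. The Cx43 difference of MRPS18A ranged from -0.3120 to 0.0625. Direct differences ranged from -0.0095 to 0.0968 for MRPL19, from -0.1105 to 0.1664 for MRPS30 and from -0.0175 to 0.1134 for MRPS31. Over all single genes and alternatives, 619 values kept their direction and side of the threshold, 53 passed it newly, 96 no longer passed it and 32 changed sign. Read depth is unknown, so its limits could not be given.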
